A study of Homo sapiens with 12 samples.

Results

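Histone and DNA methyltransferases and demethylases were followed in RNAseq data of KMT9α knockdown in the bladder carcinoma cell lines CAL-29 and 5637. The genes were chosen by symbol alone, as those in both count tables that carry a family prefix of these enzymes (KMT, KDM, SETD, PRDM, NSD, SMYD, SUV39H, EHMT, EZH, PRMT, DNMT or TET) and a number. This gave 78 of 23064 gene symbols, among them 19 KDM, 14 PRDM, 9 SETD, 8 KMT, 8 PRMT, 5 SMYD and 4 DNMT genes. A Y-linked gene, KDM5D, is given no value, so 77 were described. CAL-29 and 5637 are established human lines, and the cells were harvested 3 days after transfection with a control siRNA (siCtrl) or with an siRNA against KMT9α, with 3 libraries for each siRNA in each line, 12 in all. The labels do not name the siRNA and the tables call it si270. The study's results name it siKMT9α#1. The knockdown is transient and only 1 siRNA was sequenced, and 5637 cells were transfected with another reagent and at a higher siRNA concentration than CAL-29 cells, so line, reagent and concentration cannot be told apart. The labels do not say that the libraries came from separate cultures, so p-values measure only the spread between these libraries.

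KMT9α is the catalytic subunit of a methyltransferase that methylates lysine 12 of histone H4. It belongs to another structural class than the SET domain enzymes, which place most lysine methylation on histones. Methyl groups are removed from histone lysines by the flavin-dependent KDM1 enzymes and by the JmjC demethylases, which use iron and 2-oxoglutarate. Arginines are methylated by PRMT enzymes. DNA is methylated by DNMT enzymes, and TET dioxygenases oxidise its methyl groups. Urothelial carcinoma is known for frequent inactivating mutations in several of these genes, above all KDM6A, KMT2D and KMT2C.

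The targeted transcript was measured first. KMT9α is encoded by N6AMT1, on the minus strand at chr21:30244513-30257693 (GRCh37, the assembly that hg19 denotes). The siRNA is directed at the following stretch of its exon 3, which is coding and lies at chr21:30254500-30254524. It is shown because its capitals mark the 7 bases that pair with positions 2 to 8 of the antisense strand of siKMT9α#1, and the same 7 bases are looked for in the enzymes' own transcripts further on.
N6AMT1 target: acgctgtaacaaagttcACATTCAa

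N6AMT1 had 11.1, 9.97 and 9.42 CPM in the siCtrl libraries of CAL-29 cells and 2.78, 2.88 and 1.96 CPM in the siKMT9α#1 libraries, where CPM is counts divided by library size in units of 1e6 after TMM scaling of all 12 libraries together. The log2 fold change, fitted within the line as for every fold change given here, was -2.0 (SE 0.15, edgeR adjusted p = 1.38e-10). The 5637 libraries had 13.7, 13.4 and 13.5 CPM with siCtrl and 3.87, 2.26 and 2.65 CPM with siKMT9α#1 (log2 fold change -2.22, SE 0.12, edgeR adjusted p = 2.06e-15). Each siKMT9α#1 library lay below each siCtrl library of its line. An exact permutation test over 3 libraries against 3 gave a two-sided p of 0.1 in each line, the smallest it allows. The fall did not differ detectably between the lines (difference CAL-29 minus 5637 0.24, SE 0.21, edgeR adjusted p = 0.362).

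Total counts over the rows kept, 1 per symbol, were between 24479348.5 and 35151256.5 per library. Replicates differed by more than counting noise, as the chi-square statistic divided by its degrees of freedom lay at 2.25 or above for every pair. It reached at most 4.0 for pairs without the siCtrl library 1 of CAL-29 cells, and was 8.18 and 12.3 for the pairs of that library with the other siCtrl libraries of its line. Several results that rest on this library are given with and without it. Of 9 epithelial and urothelial markers, 7 were downregulated past the 1e-06 threshold in each line. The share of all genes called downward was 15.0% for CAL-29, and for 5637 it was 17.5%. One direction did not hold for every marker. TP63 was called upward in 5637 cells (log2 fold change 0.36). KRT7 had the highest log2 fold change of these markers in CAL-29 cells (0.28) but the lowest in 5637 cells (-0.96). The summed level of the 9 markers was 12893 to 13602 CPM with siCtrl and 6291 to 6453 CPM with siKMT9α#1 in CAL-29 cells, and 8978 to 9387 CPM and 6209 to 6433 CPM in 5637 cells. Fewer cells of a type and less RNA per cell cannot be told apart in such bulk samples. Markers of immune, endothelial, muscle and stromal cells summed to at most 27.7 CPM in any library of CAL-29 cells and 2.17 CPM in any library of 5637 cells. Of 12 proliferation genes, CAL-29 cells had 11 upregulated and 1 downregulated (median log2 fold change 1.16), and 5637 cells had 7 and 2 (median 0.37). The part of these shifts in the enzymes' values was not tested.

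In CAL-29 cells the enzymes were called no more often than all genes, and in 5637 cells their calls were mostly upward. Of 68 enzymes that passed the count filter in CAL-29 cells, 11 were upregulated and 7 downregulated as differentially expressed genes (DEGs, unadjusted p below 1e-06 in edgeR's quasi-likelihood test). This is 26.5%, against 29.9% of all 14682 genes tested. The upregulated enzymes made up 16.2%, against 14.9% of all genes, and the downregulated ones 10.3%, against 15.0%. In 5637 cells 68 enzymes were tested, and 26 were upregulated and 6 downregulated. This is 47.1%, against 35.4% of all 14367 genes. The upregulated share of 38.2% stood beside 17.9% over all genes, and the downregulated share of 8.82% beside 17.5%. At an adjusted p below 0.05, 25 enzymes were higher and 18 lower with siKMT9α#1 in CAL-29 cells, where 34.3% and 35.3% of all genes were, and 38 were higher and 16 lower in 5637 cells, where 35.0% and 35.6% of all genes were. These are 63.2% and 79.4% of the enzymes, against 69.5% and 70.6% of all genes. The median log2 fold change of the enzymes was 0.08 in CAL-29 and 0.20 in 5637 cells, against -0.02 and -0.01 over all genes tested.

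Most of these changes were small. At p below 1e-06, a change of 1 or more on the log2 scale was reached by KDM6A, KDM7A and PRMT1 in CAL-29 cells, where 10.3% of all genes reached it, and by KMT5A alone in 5637 cells, where 7.38% did. The siKMT9α#1 and siCtrl libraries did not overlap for 50 of the 68 enzymes in CAL-29 cells (73.5%, against 72.4% of all genes) and for 52 in 5637 cells (76.5%, against 72.4%). Without siCtrl library 1, CAL-29 cells had 16 enzymes upregulated and 9 downregulated, and the shares of all genes rose to 19.0% and 18.2%. Without siCtrl library 2 or without siKMT9α#1 library 2 of that line, 7 were upregulated, beside 10.4% and 10.9% of all genes. Scaling by total counts, which shifts the median of all genes by 0.08 in CAL-29 and -0.05 in 5637 cells, gave 15 up and 6 down in CAL-29 cells and 16 up and 6 down in 5637 cells, so that the upregulated share of the called enzymes went from 61.1% to 71.4% and from 81.2% to 72.7%. Over all called genes that share went from 49.9% to 59.4% and from 50.5% to 42.8%. The enzymes DNMT3L, KDM4E, PRDM7, PRDM9, PRDM13, PRDM14, PRMT8 and SMYD1 did not pass the filter in either line. PRDM12 did not pass it in CAL-29 cells, nor PRDM16 in 5637 cells.

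**Figure D1:**
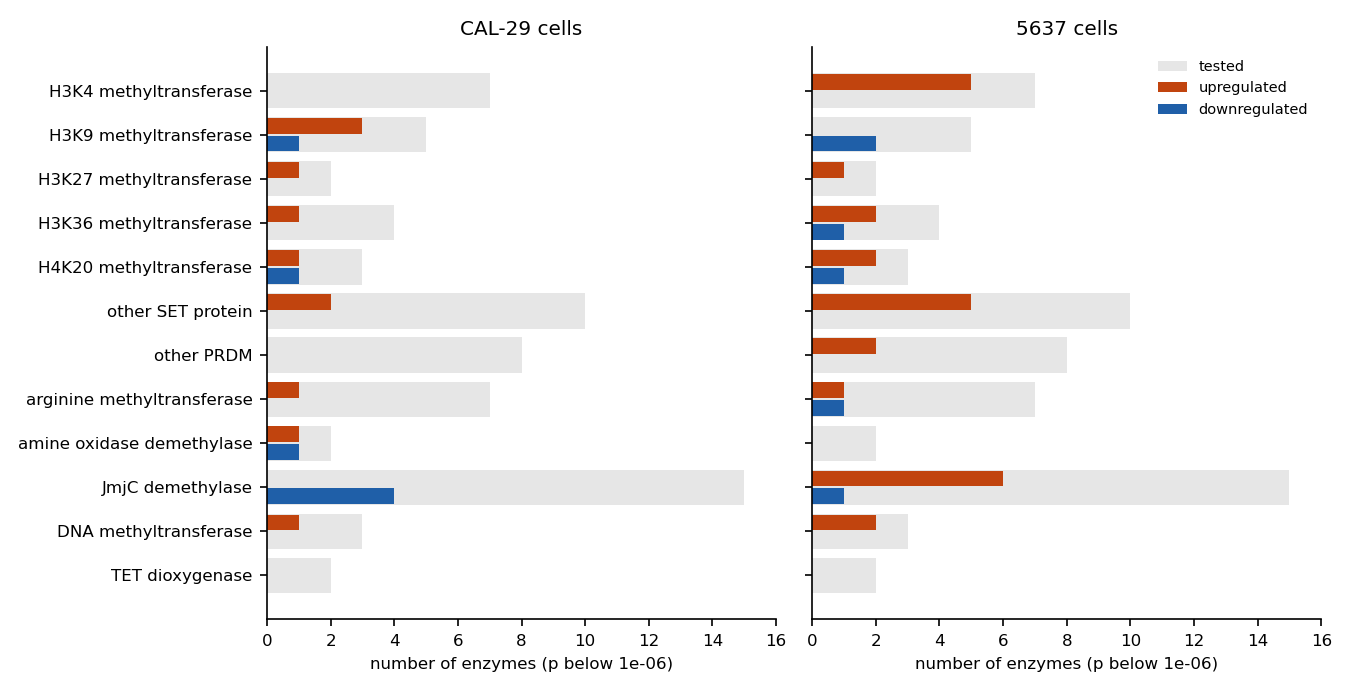
Number of enzymes of each role that were tested (grey), upregulated (red) and downregulated (blue) at p below 1e-06 with siKMT9α#1, in CAL-29 cells (left) and 5637 cells (right). JmjC demethylases were called 4 times, each downward, in CAL-29 cells, and 6 times upward and 1 time downward in 5637 cells.

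Methyltransferases of histone H3 lysine 4, the mark of promoters and enhancers, stood higher with siKMT9α#1 in 5637 cells. KMT2B, KMT2C, KMT2D, SETD1A and SETD1B, 5 of 7 tested, were upregulated and none downregulated, beside 17.9% and 17.5% of all genes. In CAL-29 cells 14.9% and 15.0% of all genes were, and these shares also stand beside the counts by role and of partners below. The median log2 fold change over the 7 in 5637 cells was 0.38. At an adjusted p below 0.05, 6 of them were higher and 1, SETD7, lower (-0.16). No H3K4 methyltransferase passed the 1e-06 threshold in CAL-29 cells, where their median was 0.21 and 4 were higher and 1 lower at an adjusted p below 0.05. KMT2D, which monomethylates H3K4 at enhancers, had 122, 131 and 119.7 CPM with siCtrl and 264, 230.4 and 246 CPM with siKMT9α#1 in 5637 cells (log2 fold change 0.99, SE 0.04, edgeR adjusted p = 3.82e-18). Each knockdown library was thus above each control library, with a gap wider than the spread within either group. The same gene had 282, 219 and 218 CPM with siCtrl and 291, 265 and 286 CPM with siKMT9α#1 in CAL-29 cells (log2 fold change 0.21, SE 0.07, edgeR adjusted p = 0.0162), and there the groups overlapped through the high siCtrl library 1. KMT2C, the paralog of KMT2D, rose in 5637 cells from 70.2, 67.7 and 66.6 CPM to 117, 95.8 and 99.4 CPM (log2 fold change 0.61, SE 0.05, edgeR adjusted p = 2.08e-11). In CAL-29 cells KMT2C had 122, 92.7 and 96.2 CPM with siCtrl and 122, 122 and 118 CPM with siKMT9α#1 (log2 fold change 0.21, SE 0.07, edgeR adjusted p = 0.0161), again with siCtrl library 1 as high as the knockdown libraries.

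KMT2A, the H3K4 methyltransferase known from leukaemia fusions, went in opposite directions in the lines. Its CAL-29 libraries had 163, 131 and 132 CPM with siCtrl and 111, 108 and 109 CPM with siKMT9α#1 (log2 fold change -0.39, SE 0.07, edgeR adjusted p = 2.01e-05). Its 5637 libraries had 119.8, 126 and 116 CPM and 145, 127 and 132 CPM (log2 fold change 0.16, SE 0.04, edgeR adjusted p = 0.0017). The groups did not overlap in either line, though in 5637 cells the lowest knockdown library lay just above the highest control. Without siCtrl library 1 of CAL-29 cells, the log2 fold changes in that line became -0.28 for KMT2A, 0.34 for KMT2C and 0.35 for KMT2D, and each then passed the 1e-06 threshold. Together with SETD1B (0.32), this made 3 H3K4 methyltransferases upregulated and 1 downregulated in CAL-29 cells. Without that library, 19.0% of all genes were upregulated and 18.2% downregulated in this line. The difference in response between the lines, as log2 CAL-29 minus 5637, was -0.53 for KMT2A, -0.38 for KMT2C and -0.76 for KMT2D with all libraries, and -0.42, -0.25 and -0.63 without that library (edgeR adjusted p between 1.27e-11 and 0.00349). KMT2B differed as well (-0.34, edgeR adjusted p = 0.00012). For SETD1A and SETD1B, no difference was detected (-0.10, SE 0.06, edgeR adjusted p = 0.181, and -0.05, SE 0.07, edgeR adjusted p = 0.604).

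Among the enzymes that methylate H3K9, a mark of silent chromatin, EHMT2, SUV39H1 and SUV39H2 responded differently in the lines. Of 5 tested, CAL-29 cells had 3 upregulated and 1 downregulated, and 5637 cells had 2 downregulated and none upregulated. SUV39H2, which with SUV39H1 trimethylates H3K9 in heterochromatin, had 9.50, 10.8 and 10.97 CPM with siCtrl and 21.1, 19.2 and 21.3 CPM with siKMT9α#1 in CAL-29 cells (log2 fold change 0.96, SE 0.09, edgeR adjusted p = 5.69e-09). It had 21.5, 18.5 and 19.1 CPM and 24.8, 25.2 and 24.2 CPM in 5637 cells (log2 fold change 0.33, SE 0.06, edgeR adjusted p = 5.8e-05). The groups stood apart in both lines, and the CAL-29 knockdown libraries reached about the level of the 5637 controls. SUV39H1 had 8.78, 7.65 and 9.50 CPM against 15.6, 16.2 and 14.7 CPM in CAL-29 cells (log2 fold change 0.83, SE 0.10, edgeR adjusted p = 2.77e-07). The 5637 groups overlapped for SUV39H1, with 19.3, 20.5 and 19.3 CPM against 19.7, 19.8 and 22.4 CPM (log2 fold change 0.07, SE 0.07, edgeR adjusted p = 0.362).

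EHMT2, or G9a, the main H3K9 mono- and dimethyltransferase of euchromatin, was a DEG in both lines with opposite signs. It had 52.2, 55.2 and 55.6 CPM with siCtrl and 84.6, 81.6 and 86.0 CPM with siKMT9α#1 in CAL-29 cells (log2 fold change 0.61, SE 0.05, edgeR adjusted p = 9.25e-10). In 5637 cells it had 78.6, 81.8 and 84.9 CPM and 66.6, 64.0 and 66.3 CPM (log2 fold change -0.32, SE 0.04, edgeR adjusted p = 8.18e-08). Neither pair of groups overlapped. PRDM2, a PR domain protein with H3K9 methyltransferase activity, was downregulated alike in both lines, from 56.3, 50.4 and 54.8 CPM to 31.1, 28.8 and 30.0 CPM in CAL-29 cells (log2 fold change -0.87, SE 0.06, edgeR adjusted p = 7.53e-11) and from 54.9, 50.1 and 50.003 CPM to 33.8, 29.9 and 32.4 CPM in 5637 cells (log2 fold change -0.69, SE 0.05, edgeR adjusted p = 3.16e-12). The difference between these falls was -0.16 with an SE of 0.08 (edgeR adjusted p = 0.112). EHMT1, the partner of EHMT2, had log2 fold changes of -0.08 (SE 0.05) and -0.02 (SE 0.03) and passed neither threshold.

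EZH2, the catalytic subunit of Polycomb repressive complex 2 (PRC2), was upregulated in both lines, by 0.46 (SE 0.05) on the log2 scale in CAL-29 cells and by 0.36 (SE 0.04) in 5637 cells. Its mean level went from 39.3 ± 0.267 to 54.5 ± 1.66 CPM and from 81.7 ± 2.16 to 105 ± 1.38 CPM (SD, n = 3). Its paralog EZH1 had 23.3, 21.0 and 21.5 CPM with siCtrl and 20.003, 15.7 and 18.5 CPM with siKMT9α#1 in CAL-29 cells (log2 fold change -0.30, SE 0.09, edgeR adjusted p = 0.00494). With 38.9, 36.9 and 35.9 CPM against 40.5, 42.6 and 38.8 CPM, the groups of 5637 cells overlapped for EZH1 (log2 fold change 0.12, SE 0.05, edgeR adjusted p = 0.0342). The 9 PRC2 partner subunits on a hand-written list were called 3 times upward in CAL-29 cells (SUZ12, JARID2 and AEBP2), and in 5637 cells 1 time upward (JARID2, log2 fold change 0.78) and 4 times downward (EED -0.35, RBBP4 -0.45, MTF2 -0.65 and PHF19 -0.48).

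Of the H3K36 methyltransferases, which mark gene bodies and intergenic regions, NSD2 was upregulated in both lines. It had 96.5, 90.5 and 96.3 CPM with siCtrl and 172, 171 and 184 CPM with siKMT9α#1 in CAL-29 cells (log2 fold change 0.88, SE 0.05, edgeR adjusted p = 1.71e-12). In 5637 cells the libraries had 182, 176 and 174 CPM and 264, 254 and 255 CPM (log2 fold change 0.54, SE 0.03, edgeR adjusted p = 1.72e-14). Its groups lay far apart in each line. NSD1, which shares the H3K36 dimethylation activity of NSD2, was downregulated in 5637 cells (log2 fold change -0.46, SE 0.04) and had -0.24 (SE 0.05, edgeR adjusted p = 0.000387) in CAL-29 cells. SETD2, which trimethylates H3K36, was upregulated in 5637 cells (0.27, SE 0.04).

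Of the 3 H4K20 methyltransferases, KMT5A rose and KMT5C fell in both lines. KMT5A, the H4K20 monomethyltransferase that varies over the cell cycle, rose from 95.4, 94.6 and 96.3 CPM to 159.6, 158 and 159 CPM in CAL-29 cells (log2 fold change 0.72, SE 0.04, edgeR adjusted p = 9.13e-12). Its rise in 5637 cells, from 59.2, 59.0 and 59.6 CPM to 118, 124 and 124 CPM, was the largest of any enzyme in that line (log2 fold change 1.04, SE 0.04, edgeR adjusted p = 1.23e-19). The groups did not overlap in either line. KMT5C, which adds further methyl groups to the same residue, was downregulated in both lines, from 25.3 ± 0.406 to 17.2 ± 1.45 CPM in CAL-29 cells (log2 fold change -0.57, SE 0.08) and from 36.8 ± 0.611 to 26.3 ± 1.95 CPM in 5637 cells (-0.49, SE 0.06). Annotated exons of KMT5C share 18.6% of their bases with another gene on the same strand, and whether counting used strand is not given in the sources used here. KMT5B, its paralog, was upregulated in 5637 cells (0.37, SE 0.05) and had -0.06 (SE 0.07) in CAL-29 cells. The lines differed for KMT5A by -0.30 (SE 0.06) and for KMT5B by -0.41 (SE 0.08), and no difference was detected for KMT5C (-0.07, SE 0.09, edgeR adjusted p = 0.55).

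**Figure D2:**
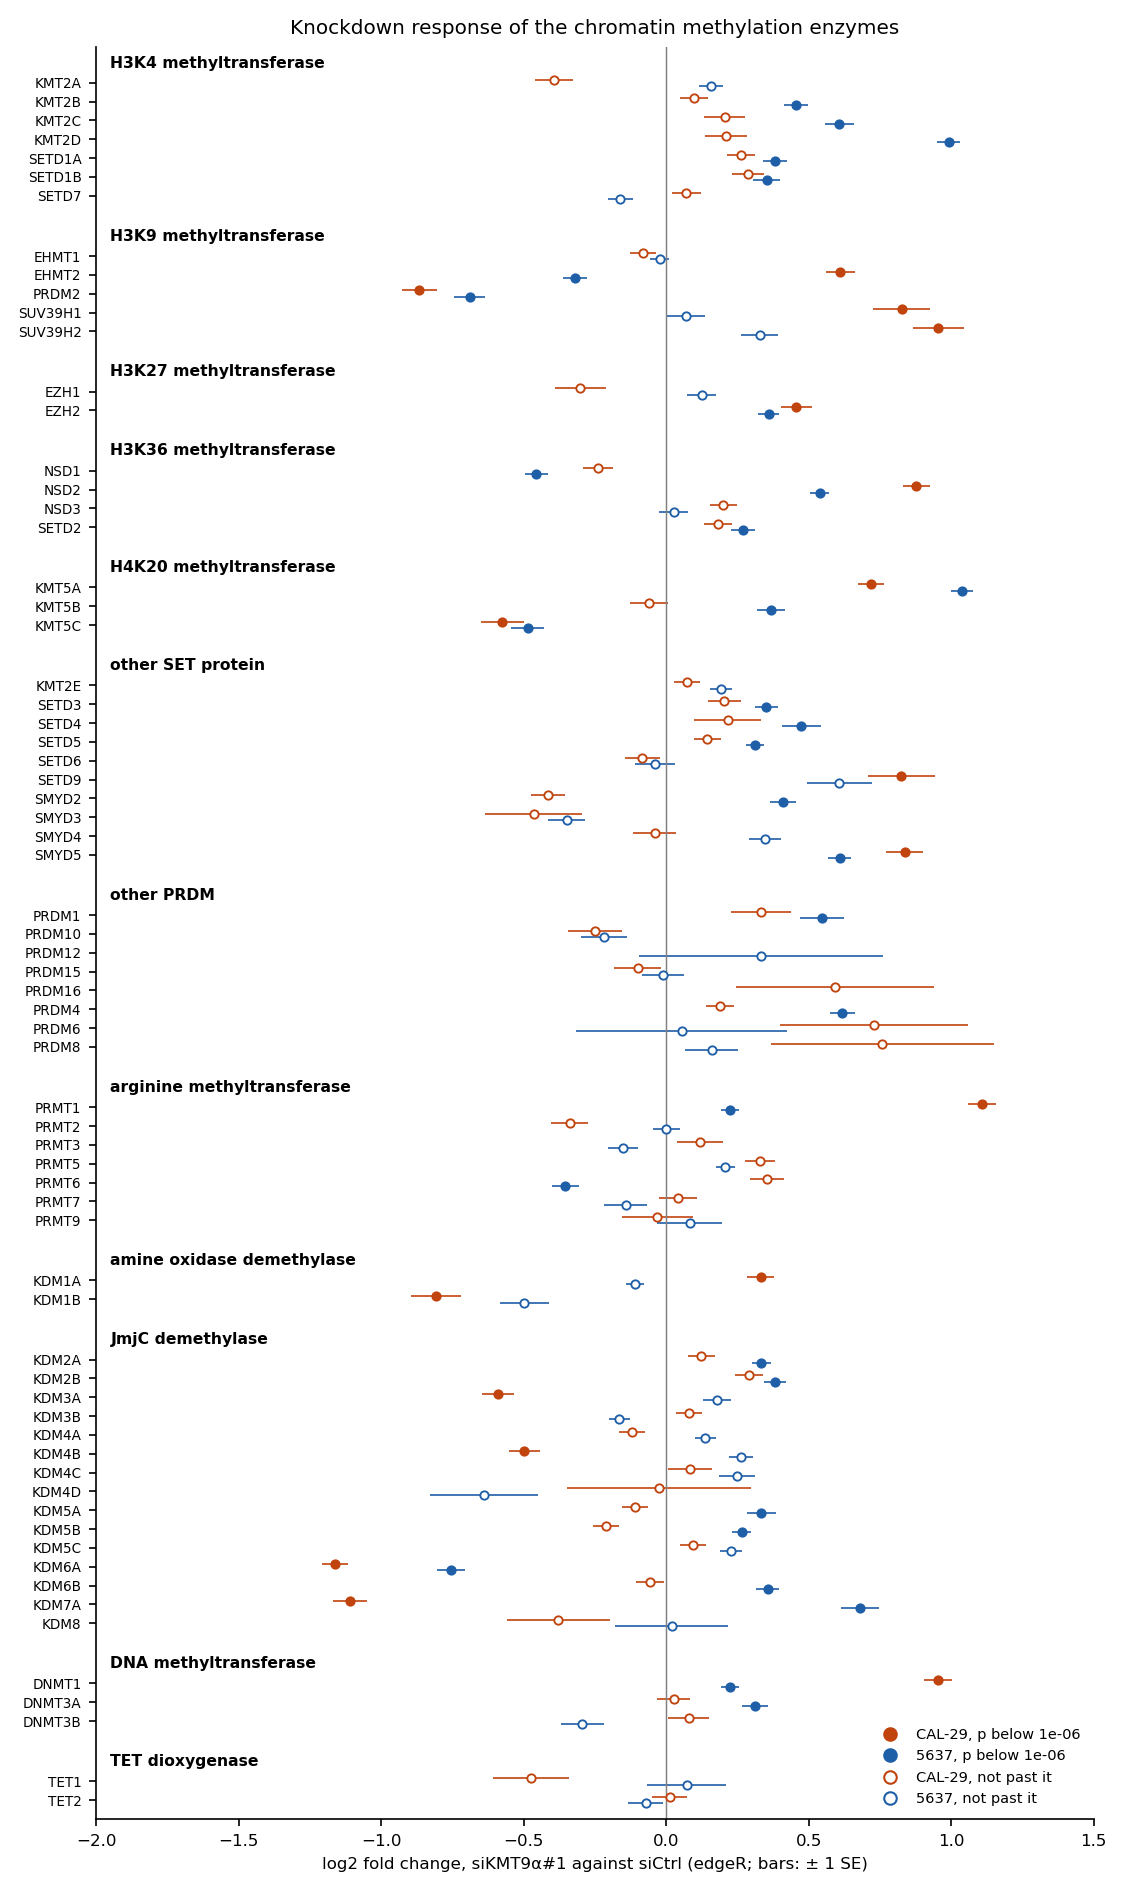
Log2 fold change (x axis, ± 1 SE) of enzymes tested, grouped by role, with siKMT9α#1 against siCtrl in CAL-29 (red) and 5637 cells (blue). Filled points passed the 1e-06 threshold and open points did not. KDM6A, at -1.16 and -0.76, lies left of 0 in both lines, whereas KDM7A lies at -1.11 in CAL-29 and 0.68 in 5637 cells.

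Of 10 other SET domain proteins tested in each line, 2 were called upward and 0 downward in CAL-29 cells. In 5637 cells 5 were called upward and 0 downward. Of all genes, 14.9% were upregulated in CAL-29 and 17.9% in 5637 cells. At an adjusted p below 0.05, 4 of the 10 were higher and 2 lower in CAL-29 cells. In 5637 cells 8 were higher and 1, SMYD3, lower (-0.35). SMYD5, of the SET and MYND domain family, had 20.3, 19.9 and 21.1 CPM with siCtrl and 37.7, 36.8 and 36.4 CPM with siKMT9α#1 in CAL-29 cells (log2 fold change 0.84, SE 0.06, edgeR adjusted p = 3.06e-10). The 5637 libraries had 56.1, 53.7 and 55.1 CPM and 81.6, 84.7 and 85.6 CPM (log2 fold change 0.61, SE 0.04, edgeR adjusted p = 1.33e-13). The groups were fully apart in each line. SMYD2, a lysine methyltransferase of histones and of p53, fell from 42.7, 43.5 and 41.3 CPM to 32.3, 34.0 and 30.4 CPM in CAL-29 cells (log2 fold change -0.41, SE 0.06, edgeR adjusted p = 4.04e-06) and rose from 50.5, 50.2 and 51.9 CPM to 62.7, 69.7 and 70.4 CPM in 5637 cells (log2 fold change 0.41, SE 0.05, edgeR adjusted p = 7.93e-09). These changes had nearly the same size with opposite signs, and no groups overlapped. SETD9 was among the lowest of the called genes, with 4.83, 5.94 and 5.08 CPM against 9.94, 9.46 and 9.02 CPM in CAL-29 cells (log2 fold change 0.83, SE 0.12, edgeR adjusted p = 3.2e-06) and 4.67, 4.29 and 4.86 CPM against 7.66, 6.97 and 6.55 CPM in 5637 cells (log2 fold change 0.61, SE 0.11, edgeR adjusted p = 2.45e-05). SETD5 rose by 0.31 (SE 0.03) on the log2 scale in 5637 cells and by 0.14 (SE 0.05, edgeR adjusted p = 0.0111) in CAL-29 cells.

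PRDM proteins not counted above carry a PR domain beside zinc fingers, and most act as transcription factors. Of 8 tested in each line, none passed the 1e-06 threshold in CAL-29 cells, with 2 higher and 1 lower at an adjusted p below 0.05, and 2 were upregulated in 5637 cells. PRDM4 had 49.3, 52.9 and 50.5 CPM with siCtrl and 78.7, 76.2 and 79.7 CPM with siKMT9α#1 in 5637 cells (log2 fold change 0.62, SE 0.04, edgeR adjusted p = 2.63e-13). Its CAL-29 libraries had 68.7, 70.3 and 69.7 CPM and 77.1, 83.9 and 79.9 CPM (log2 fold change 0.19, SE 0.05, edgeR adjusted p = 0.00203). The groups stood apart in both lines, by far less in CAL-29 cells, and the responses differed (-0.41, SE 0.06, edgeR adjusted p = 4.45e-06). The other one called in 5637 cells was PRDM1, also known as BLIMP1, at 0.55 (SE 0.08).

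Of the arginine methyltransferases, PRMT1, which places most asymmetric dimethylarginine in the cell, was upregulated in both lines. It had 84.6, 92.9 and 89.7 CPM with siCtrl and 188, 194 and 202 CPM with siKMT9α#1 in CAL-29 cells (log2 fold change 1.11, SE 0.05, edgeR adjusted p = 4.44e-14). Its level in 5637 cells was higher to begin with, at 379.9, 396 and 402 CPM, and reached 444, 472 and 461 CPM (log2 fold change 0.22, SE 0.03, edgeR adjusted p = 6.89e-07). The 5637 call was lost in 6 of 15 alternatives, with no change of direction. Both rises were larger than the spread between replicates, and the rise in CAL-29 cells exceeded that in 5637 cells by 0.90 (SE 0.06, edgeR adjusted p = 6.62e-13). PRMT5, the main enzyme of symmetric dimethylation, had log2 fold changes of 0.33 (SE 0.05, edgeR adjusted p = 1.62e-05) and 0.21 (SE 0.03, edgeR adjusted p = 3.46e-06) and passed the 1e-06 threshold in neither line. Antisense exons overlap 28.2% of the annotated exon bases of PRMT5. PRMT6, which methylates arginine 2 of histone H3, had 37.4, 39.4 and 42.8 CPM against 51.2, 49.5 and 54.3 CPM in CAL-29 cells (log2 fold change 0.35, SE 0.06, edgeR adjusted p = 3.08e-05) and 53.1, 52.3 and 57.2 CPM against 42.1, 42.5 and 42.9 CPM in 5637 cells (log2 fold change -0.35, SE 0.05, edgeR adjusted p = 1.5e-07). It was thus higher in every knockdown library of the first line and lower in every one of the second. The other 4 of the 7 tested, PRMT2, PRMT3, PRMT7 and PRMT9, ranged from -0.34 to 0.12 in CAL-29 and from -0.15 to 0.08 in 5637 cells and were not called at the 1e-06 threshold.

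Both flavin-dependent demethylases of H3K4 were called in CAL-29 cells, in opposite directions. KDM1B, or LSD2, went from 21.3, 24.7 and 24.0 CPM to 14.95, 12.47 and 13.0 CPM (log2 fold change -0.81, SE 0.09, edgeR adjusted p = 6.22e-08). Its 5637 libraries had 19.1, 17.6 and 15.2 CPM with siCtrl and 13.7, 11.2 and 11.9 CPM with siKMT9α#1 (log2 fold change -0.50, SE 0.09, edgeR adjusted p = 1.15e-05). The groups did not overlap in either line. The difference in response of KDM1B, CAL-29 minus 5637, was -0.30 (edgeR adjusted p = 0.0636). Without siCtrl library 1 of CAL-29 cells it was -0.35 (edgeR adjusted p = 0.0207). KDM1A, or LSD1, had 169.3, 159 and 166 CPM against 214, 213 and 203 CPM in CAL-29 cells (log2 fold change 0.33, SE 0.05, edgeR adjusted p = 2.64e-06) and 253, 254 and 258 CPM against 241, 238 and 232 CPM in 5637 cells (log2 fold change -0.11, SE 0.03, edgeR adjusted p = 0.00361). The shift in 5637 cells was small, with the groups still apart. RCOR1, which tethers KDM1A in the CoREST complex, was downregulated in both lines (-0.57, SE 0.06, and -0.71, SE 0.05).

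JmjC demethylases were called downward in CAL-29 cells and mostly upward in 5637 cells. Of 15 tested, none was upregulated and KDM3A, KDM4B, KDM6A and KDM7A were downregulated in CAL-29 cells (median log2 fold change -0.11), while 6 were upregulated and KDM6A alone was downregulated in 5637 cells (median 0.25). Of all genes, 15.0% were downregulated in CAL-29 and 17.9% upregulated in 5637 cells, and with so few demethylases no direction is read as particular to them. At an adjusted p below 0.05, 2 were higher and 7 lower in CAL-29 cells, and 11 higher and 3 lower in 5637 cells. Without siCtrl library 1 of CAL-29 cells, 1 (KDM2B) was upregulated and the same 4 were downregulated, beside 19.0% and 18.2% of all genes. Scaling by total counts gave 1 up and 4 down in CAL-29 and 4 up and 1 down in 5637 cells, beside 12.8% of all genes downregulated in the first line and 14.6% upregulated in the second.

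KDM6A, or UTX, removes H3K27 methylation and is a subunit of the KMT2C and KMT2D complexes. It was the enzyme with the highest level per length of the canonical transcript in CAL-29 controls and fell the most there, from 429.7, 439 and 442 CPM to 196, 197 and 199.5 CPM (log2 fold change -1.16, SE 0.05, edgeR adjusted p = 4.85e-15). It fell in 5637 cells as well, from 89.9, 86.9 and 79.5 CPM to 53.4, 47.1 and 51.5 CPM (log2 fold change -0.76, SE 0.05, edgeR adjusted p = 6.5e-14). In CAL-29 cells the knockdown libraries remained above every 5637 library. The fall was larger in CAL-29 cells (difference -0.39, SE 0.07, edgeR adjusted p = 1.41e-05). KDM6B, the inducible H3K27 demethylase, was in contrast upregulated in 5637 cells (0.36, SE 0.04) and had -0.06 (SE 0.05) in CAL-29 cells.

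KDM7A, a demethylase of dimethylated H3K9 and H3K27, gave the largest difference between the lines of any enzyme tested in both. Its CAL-29 libraries had 66.9, 62.1 and 59.6 CPM with siCtrl and 30.6, 28.3 and 29.7 CPM with siKMT9α#1 (log2 fold change -1.11, SE 0.06, edgeR adjusted p = 1.22e-12). The 5637 libraries had 21.3, 20.6 and 17.3 CPM and 31.1, 32.8 and 30.9 CPM (log2 fold change 0.68, SE 0.07, edgeR adjusted p = 4.73e-10). The levels of the lines, clearly apart with siCtrl, met near 30 CPM with siKMT9α#1. The difference in response was -1.77 (SE 0.09, edgeR adjusted p = 2.38e-15).

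Among demethylases of H3K9 and H3K36, KDM3A, KDM4A and KDM4B were lower in CAL-29 and higher in 5637 knockdown cells, while KDM3B had 0.08 (SE 0.05) in CAL-29 and -0.16 (SE 0.04) in 5637 cells. KDM3A, which acts on mono- and dimethylated H3K9, had 70.0, 66.9 and 75.2 CPM against 48.3, 48.5 and 45.9 CPM in CAL-29 cells (log2 fold change -0.59, SE 0.06, edgeR adjusted p = 7.29e-09) and 40.1, 41.9 and 38.6 CPM against 45.8, 44.2 and 46.5 CPM in 5637 cells (log2 fold change 0.18, SE 0.05, edgeR adjusted p = 0.00186). KDM4B, which acts on trimethylated H3K9, had 62.6, 63.0 and 67.1 CPM against 45.4, 48.1 and 44.6 CPM in CAL-29 cells (log2 fold change -0.50, SE 0.05, edgeR adjusted p = 6.94e-08) and 56.2, 54.7 and 58.2 CPM against 68.5, 67.2 and 67.5 CPM in 5637 cells (log2 fold change 0.26, SE 0.04, edgeR adjusted p = 2.93e-06). For both genes every knockdown library lay below the controls in CAL-29 cells and above them in 5637 cells. KDM4A, a paralog of KDM4B, had 121, 121 and 122 CPM against 114, 110.0 and 116 CPM (log2 fold change -0.12, SE 0.05, edgeR adjusted p = 0.0241) and 89.4, 88.3 and 88.5 CPM against 99.999, 95.4 and 97.7 CPM (log2 fold change 0.14, SE 0.04, edgeR adjusted p = 0.00168). These shifts were slight, and annotated exons of KDM4A share 40.2% of their bases with a gene model on the same strand.

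The H3K4 demethylases KDM5A and KDM5B were likewise lower in CAL-29 and higher in 5637 knockdown cells. KDM5A had 159.7, 154 and 151 CPM against 143, 149 and 144 CPM in CAL-29 cells (log2 fold change -0.11, SE 0.05, edgeR adjusted p = 0.0394) and 59.1, 53.8 and 51.9 CPM against 72.1, 63.5 and 72.3 CPM in 5637 cells (log2 fold change 0.33, SE 0.05, edgeR adjusted p = 1.48e-06). KDM5B had 230.5, 214 and 223 CPM against 190.3, 194 and 199.9 CPM in CAL-29 cells (log2 fold change -0.21, SE 0.05, edgeR adjusted p = 0.000471) and 115, 115 and 114 CPM against 139.6, 134 and 139.5 CPM in 5637 cells (log2 fold change 0.26, SE 0.03, edgeR adjusted p = 1.06e-07). The groups did not overlap for either gene in either line. Without siCtrl library 1 of CAL-29 cells, KDM5A had -0.08 in that line and no longer passed 0.05 (edgeR adjusted p = 0.066). KDM2A, a CpG island demethylase of H3K36, was upregulated in 5637 cells from 303, 305 and 306 CPM to 403, 369 and 382 CPM (log2 fold change 0.33, SE 0.03) and had a log2 fold change of 0.12 (SE 0.05, edgeR adjusted p = 0.0219) in CAL-29 cells. KDM5C, a paralog of KDM5A, had 0.09 (SE 0.05) and 0.23 (SE 0.04) and passed the 1e-06 threshold in neither line.

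**Figure D3:**
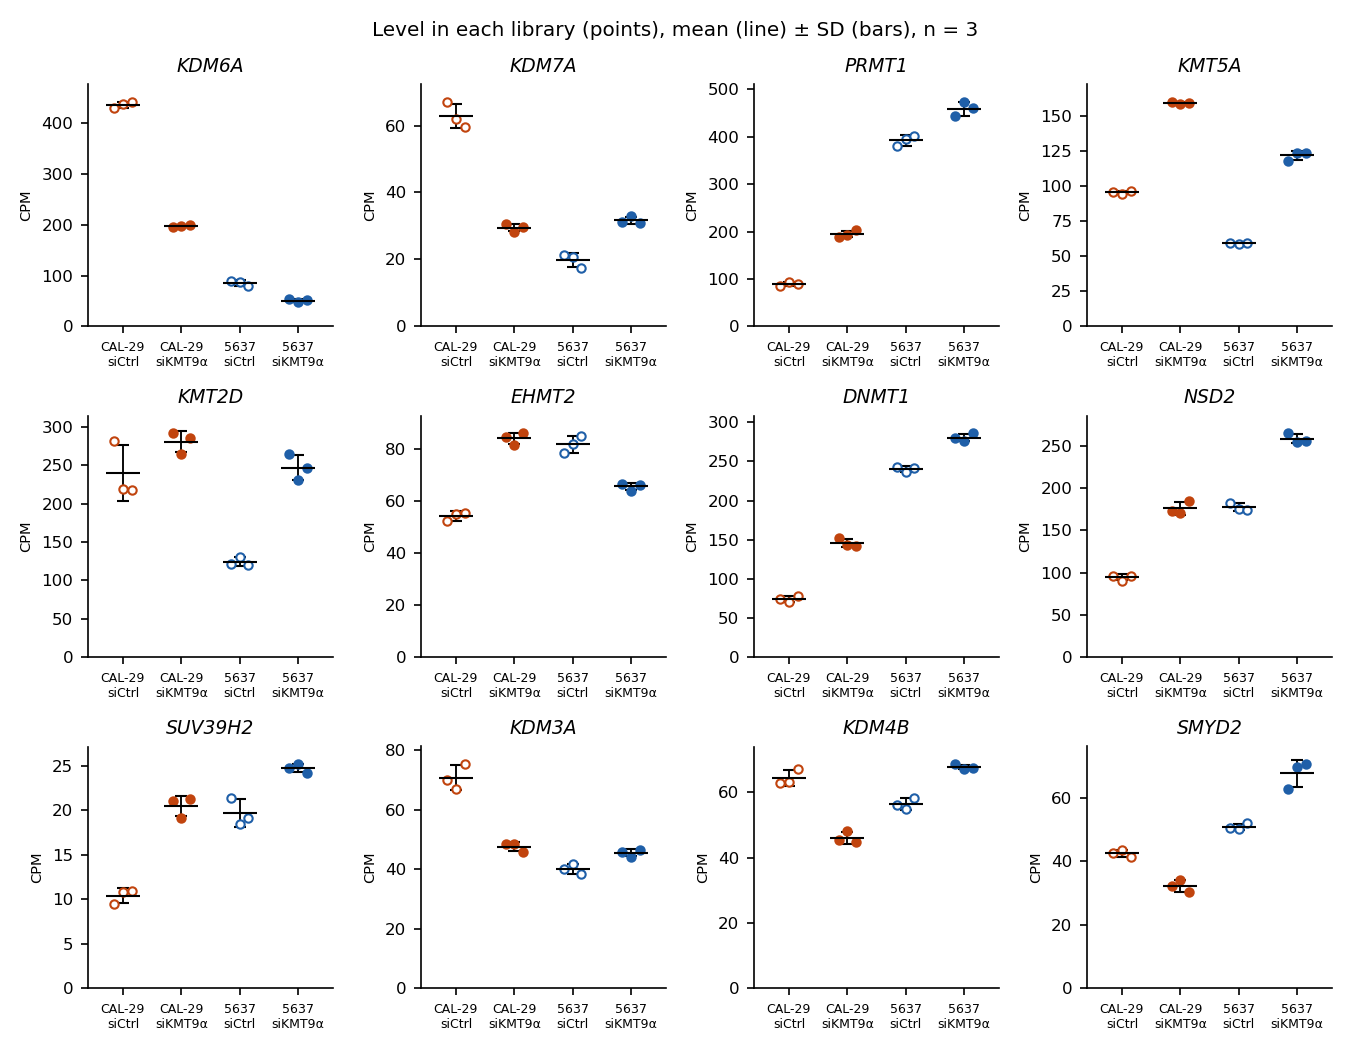
Level in CPM (y axis, from 0) of 12 enzymes in each library, with open points for siCtrl and filled points for siKMT9α#1, the mean as a line and the SD as bars (n = 3), in CAL-29 (red) and 5637 cells (blue). KDM7A, EHMT2, KDM3A, KDM4B and SMYD2 change in opposite directions in the lines, while KDM6A falls and PRMT1, KMT5A, DNMT1 and NSD2 rise in both.

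DNMT1, which copies DNA methylation onto the new strand after replication, was upregulated in both lines. It went from 74.0, 71.0 and 77.8 CPM to 152, 143 and 142 CPM in CAL-29 cells (log2 fold change 0.95, SE 0.05, edgeR adjusted p = 6.73e-13) and from 243, 236 and 241 CPM to 279, 276 and 286 CPM in 5637 cells (log2 fold change 0.22, SE 0.03, edgeR adjusted p = 4.08e-07). The groups were apart in both lines and the rise was larger in CAL-29 cells by 0.75 (SE 0.06, edgeR adjusted p = 1.36e-11). The de novo methyltransferase DNMT3A was upregulated in 5637 cells (0.31, SE 0.05) and had 0.03 (SE 0.06) in CAL-29 cells. DNMT3B had 0.08 (SE 0.07) in CAL-29 and -0.29 (SE 0.07, edgeR adjusted p = 0.000996) in 5637 cells. Neither TET1 nor TET2 was called at the 1e-06 threshold. TET1 had -0.47 in CAL-29 cells (log2 fold change, SE 0.13, edgeR adjusted p = 0.00378), and TET2 had 0.01 and -0.07 in the lines (SE 0.06 each). UHRF1, which brings DNMT1 to hemimethylated DNA, was downregulated in both lines, with a log2 fold change of -0.37 (SE 0.05) in CAL-29 and -1.16 (SE 0.04) in 5637 cells.

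By role, the lysine methyltransferases with the other SET proteins (31 tested) were called 8 times upward and 2 times downward in CAL-29 cells and 15 times upward and 4 times downward in 5637 cells, with median log2 fold changes of 0.18 and 0.33. For these and the next counts, the shares of all genes were 14.9% up and 15.0% down in CAL-29 and 17.9% up and 17.5% down in 5637 cells. The histone demethylases (17 tested) were called 1 time upward and 5 times downward in CAL-29 cells and 6 times upward and 1 time downward in 5637 cells, with medians of -0.11 and 0.23. Outside the symbol families, 13 further chromatin methylation enzymes were called 1 time upward and 1 time downward in CAL-29 and 3 times upward and 2 times downward in 5637 cells. HR, a JmjC demethylase of H3K9, was downregulated in both lines (-1.37, SE 0.06, and -1.53, SE 0.07). MECOM, a PRDM gene under another symbol, was upregulated in CAL-29 cells (1.27, SE 0.06) and had -0.01 (SE 0.07) in 5637 cells. Partner subunits of these enzymes (27 listed) were called 8 times upward and 2 times downward in CAL-29 and 5 times upward and 7 times downward in 5637 cells, with medians of 0.17 and 0.09. Among them WDR5, shared by the KMT2 and SETD1 complexes, was upregulated in both lines (0.54, SE 0.05, and 0.38, SE 0.03), as was WIZ of the EHMT complex (0.71, SE 0.06, and 0.72, SE 0.04). ASH2L, another shared KMT2 subunit, was downregulated in 5637 cells (-0.58, SE 0.05) and had 0.17 (SE 0.06) in CAL-29 cells.

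Direction in the lines was then compared for the 67 enzymes tested in both. Each line has its own siCtrl libraries. At p below 1e-06, 9 enzymes changed in the same direction (13.4%, against 16.8% of 13699 genes), of which DNMT1, EZH2, KMT5A, NSD2, PRMT1 and SMYD5 were upregulated and KDM6A, KMT5C and PRDM2 downregulated. The 5637 call was lost in 6 of 15 alternatives for PRMT1 and in 4 for DNMT1. The CAL-29 call was lost in 5 of 15 for KMT5C and in 3 for EZH2. EHMT2 and KDM7A changed in opposite directions at this threshold (1.74% of all genes did). A further 7 enzymes were called in CAL-29 cells alone, 21 in 5637 cells alone and 28 in neither. At an adjusted p below 0.05, 27 enzymes changed in the same direction (20 up and 7 down, 40.3% against 44.2% of all genes) and 12 in opposite directions (17.9% against 9.89% of all genes). EZH1, KDM3A, KDM4A, KDM4B, KDM5A, KDM5B, KDM7A, KMT2A and SMYD2 were lower in CAL-29 and higher in 5637 knockdown cells, and EHMT2, KDM1A and PRMT6 the reverse. Of the 12, 6 are JmjC demethylases, which make up 15 of the 67 enzymes tested, and this is not read as particular to them. Across 21 other settings, 9 of the 12 stayed opposite in every one, and KDM4A did in 15, EZH1 in 12 and KDM5A in 11. Without siCtrl library 1 of CAL-29 cells, 13 enzymes had the same direction and 3 opposite ones at p below 1e-06 (19.9% and 2.14% of all genes), and 30 and 11 at an adjusted p below 0.05 (44.4% and 9.66% of all genes).

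The test of the difference itself, an interaction of line and siRNA over all 12 libraries, called 38 of 69 enzymes at an adjusted p below 0.05 (55.1%, against 50.3% of 15411 genes). The response was higher in CAL-29 cells for 15 enzymes (21.7%, against 28.5% of all genes) and lower for 23 (33.3%, against 21.8%). Without siCtrl library 1 of CAL-29 cells, 40 were called. Against a minimum difference of 1.5-fold (edgeR's glmTreat), 7 remained: DNMT1, EHMT2, KDM3A, KDM4B, KDM7A, PRMT1 and SMYD2 (10.1%, against 10.8% of all genes). KDM7A alone passed both an adjusted p of 0.05 and a difference of 1 on the log2 scale.

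**Figure D4:**
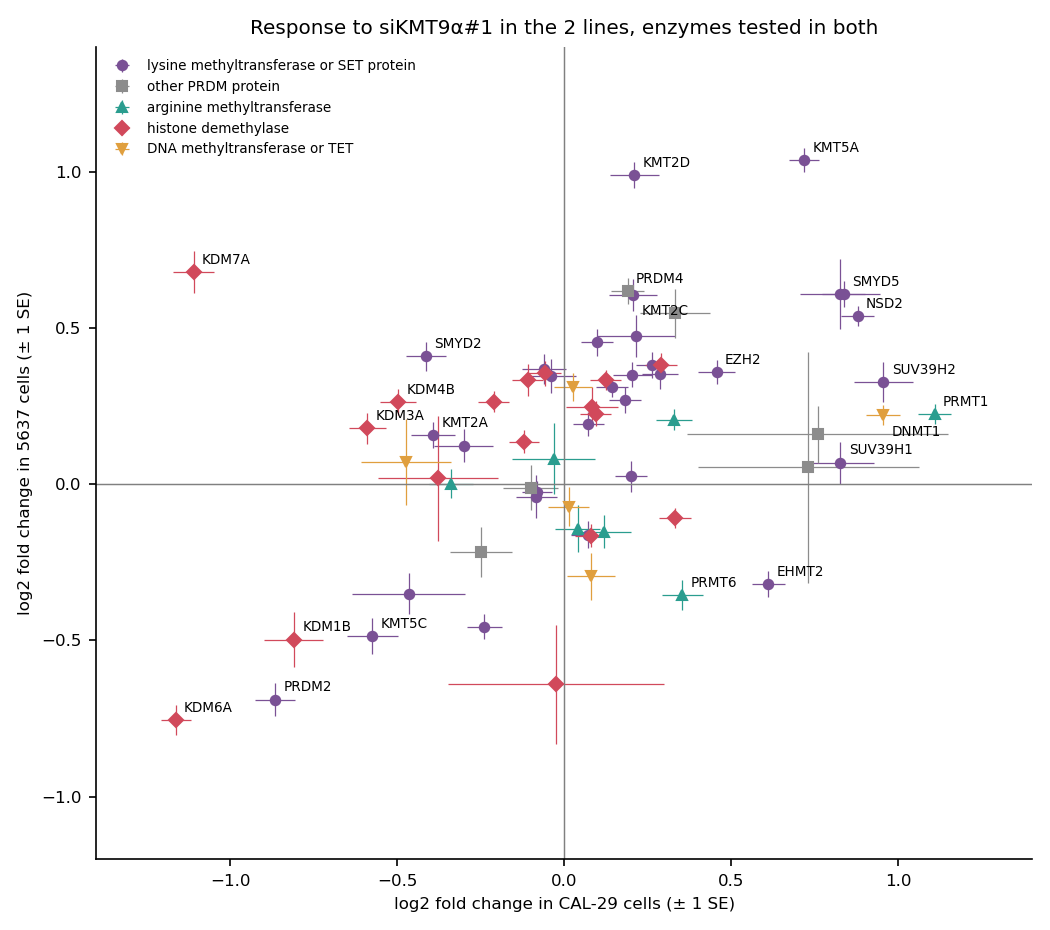
Log2 fold change with siKMT9α#1 in CAL-29 cells (x axis) against 5637 cells (y axis), both ± 1 SE, for enzymes tested in both lines, with symbols by kind of enzyme. KDM7A stands alone at upper left (-1.11, 0.68), KDM6A and PRDM2 at lower left, and KMT5A at upper right (0.72, 1.04).

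Levels in siCtrl cells differed between the lines as well. To compare genes, CPM was divided by the length in kilobases of the canonical transcript, which need not be the transcript whose row was counted. On this scale the highest enzymes in CAL-29 cells were KDM6A (71.7 ± 1.02 CPM per kb), PRMT1 (67.1 ± 3.18), KDM2A (56.3 ± 1.45), KDM1A (53.4 ± 1.80) and KMT5A (34.4 ± 0.307), each as mean ± SD over 3 libraries. Of neighbours in this order, KDM2A and KDM1A lay within their combined spread of each other, and KMT5A was hardly above KDM5C (34.0 ± 1.03). The highest in 5637 cells were PRMT1 (296 ± 8.49 CPM per kb), SETD5 (123 ± 0.925), KDM1A (82.7 ± 0.781), PRMT5 (57.9 ± 0.901) and DNMT1 (45.5 ± 0.673), and these neighbours differed by more than their spread. With the longest annotated transcript as length, the order in CAL-29 cells became KDM2A, PRMT1, KDM6A and KMT5A, and that in 5637 cells became PRMT1, SETD5, PRMT5, KDM1A and KDM2A, with DNMT1 next.

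Of 69 enzymes, 16 had siCtrl levels that differed by at least 1 on the log2 scale at an adjusted p below 0.05 (23.2%, against 39.3% of all genes). Higher in CAL-29 cells were 5 (7.25%, against 20.5% of all genes): KDM5A, KDM5C, KDM6A, KDM7A and PRDM16. Of these, PRDM16 passed the count filter within CAL-29 cells but not within 5637 cells, so the filter in part fixed its direction here. Higher in 5637 cells were 11 (15.9%, against 18.8%), among them DNMT1, EZH2, KDM4D, PRDM8, PRMT1, PRMT5, SETD5, SMYD3, SMYD5 and SUV39H1. KDM6A differed by 2.35 (SE 0.05) and KDM7A by 1.67 (SE 0.07) on the log2 scale, CAL-29 minus 5637. SETD5, a SET domain protein linked to histone deacetylase complexes, differed by -2.34 (SE 0.04), with 168 ± 5.33 CPM in CAL-29 and 850.5 ± 6.41 CPM in 5637 cells (SD, n = 3), and PRMT1 by -2.14 (SE 0.05). Without siCtrl library 1 of CAL-29 cells, 17 passed these thresholds. By the adjusted p alone, 56 enzymes differed (81.2%, against 85.3% of all genes).

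**Figure D5:**
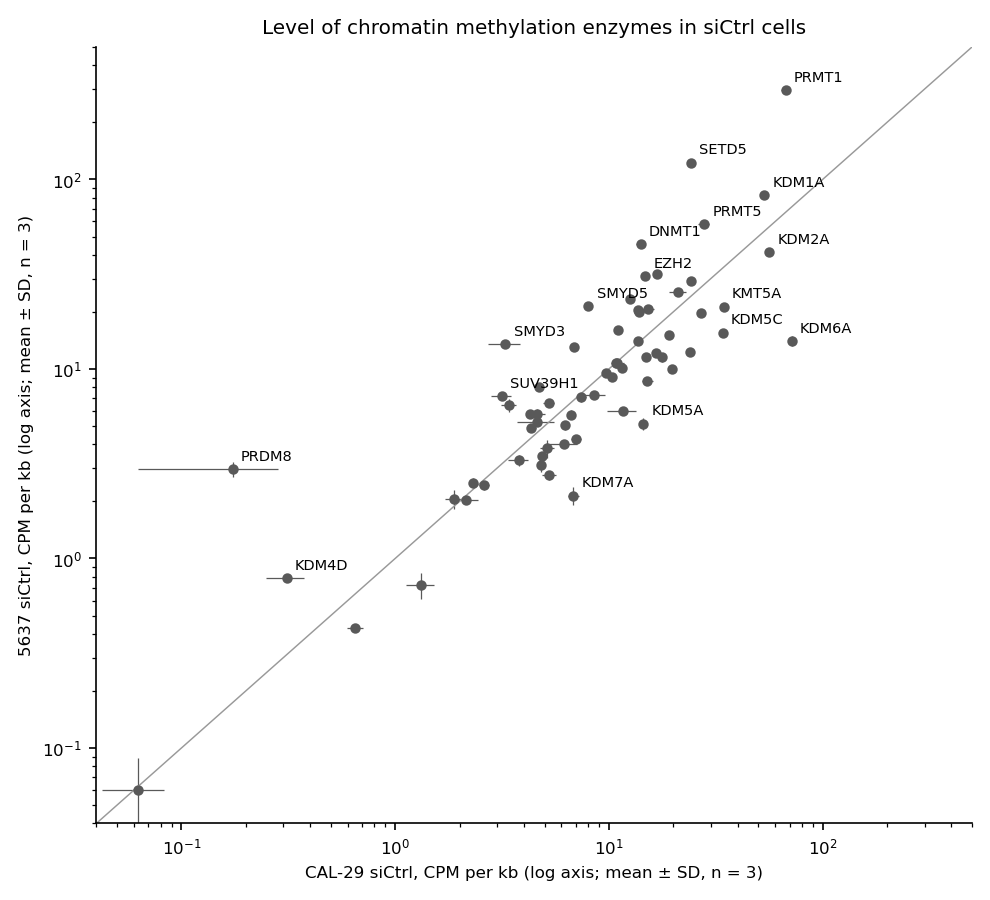
Level per transcript length in siCtrl cells, CAL-29 (x axis) against 5637 (y axis), in CPM per kb on log axes, with means ± SD (n = 3) of enzymes tested in both lines and the line of equal levels. KDM6A (71.7 and 14) lies below the line, PRMT1 (67.1 and 296) and SETD5 (24.3 and 123) above it.

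The 7 bases ACATTCA, which pair with positions 2 to 8 of the antisense strand of siKMT9α#1, were looked for on the sense strand of the longest annotated 3′ UTR. They are present in 13 of the 68 enzymes tested in each line (19.1%), against 15.0% of all genes with a 3′ UTR tested in CAL-29 and 15.4% in 5637 cells. Among all such genes, 602 of 2083 downregulated DEGs hold them in CAL-29 cells and 777 of 2432 in 5637 cells. Among the enzymes, none of the 7 downregulated in CAL-29 cells and 1 of the 6 downregulated in 5637 cells, NSD1, holds them. The median log2 fold change of the enzymes with these bases was 0.01 in CAL-29 and 0.00 in 5637 cells, and of those without them 0.09 and 0.23. Over all genes it was -0.26 with and 0.04 without in CAL-29 cells, and -0.31 with and 0.03 without in 5637 cells. The following windows of GRCh37 are shown for enzymes that hold the bases and responded differently, with the 7 bases in capitals.
NSD1, chr5:176725447-176725453, plus strand: tgaaatttACATTCAaagcctca
NSD2, chr4:1944326-1944332, plus strand: aatccgtcACATTCAtctcataa
SETD3, chr14:99878996-99879002, minus strand: cagcctcaACATTCAttttctta
PRMT2, chr21:48084345-48084351, plus strand: gtcggtgaACATTCActccacat
TET1, first site, chr10:70452373-70452379, plus strand: gtcctctcACATTCAagtattag
TET1, second site, chr10:70453067-70453073, plus strand: gtgctataACATTCAaagtgtca

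NSD1 fell and NSD2 rose in both lines, as given above. SETD3, an actin histidine methyltransferase, was upregulated in 5637 cells (0.35, SE 0.04) and had 0.20 (SE 0.06) in CAL-29 cells. PRMT2 had -0.34 (SE 0.07) in CAL-29 and 0.00 (SE 0.05) in 5637 cells, and TET1, with 2 sites, had -0.47 and 0.07. Other holders include DNMT3A, DNMT3B, PRDM6, PRDM8, PRDM10, SETD6 and TET2. The sites of NSD2, SETD3 and TET2 lie far before the annotated 3′ ends of these genes (chr4:1983934, chr14:99864085 and chr4:106200973). Whether the counted transcripts of these 3 genes hold the bases was not tested. In the shortest annotated 3′ UTR, 5 enzymes hold the bases (PRDM6, PRDM8, PRDM10, PRMT2 and TET1). The corresponding 7 bases of siKMT9α#2, CACATTC, which overlap ACATTCA by 6 bases, are present in 13 of the enzymes, and those of siCtrl, ACGCAAA, in 4 (DNMT3A, NSD2, SETD7 and TET2). A match of these letters is a description of the transcript and not a measured site.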

How the data were processed

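Total RNA of CAL-29 and 5637 cells, taken 3 days after transfection with siCtrl or siKMT9α#1, was sequenced in 3 libraries per group. Per the labels and the study's methods, the authors used STAR for alignment to hg19, HOMER for counting and edgeR for testing. The deposited tables hold estimated counts per transcript, in 37400 rows for 23064 gene symbols and in steps of 0.5. Over all values, zeros included, 37.3% are not whole, and these were rounded upward. The tables also hold the authors' log2 fold changes, p-values and adjusted p-values, which were not used. The strand setting of the counting is not given in the sources used here.

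Symbols with several rows were represented by the row with most counts. Each line was fitted on its own with edgeR 4.0.16 in R 4.3.3 (TMM scaling, filterByExpr, quasi-likelihood test), and the study's threshold, an unadjusted p below 1e-06, defined the calls, with Benjamini-Hochberg adjusted p below 0.05 beside it. Differences between lines were tested in 1 model over all 12 libraries. The printed CPM use TMM factors of the 12 libraries, whereas fold changes come from the fits within a line. The biological coefficient of variation was 5.08% in CAL-29 and 3.34% in 5637 cells. Positions, transcript lengths and 3′ UTRs are those of GENCODE on GRCh37. The procedure was tested on simulated data. DESeq2 1.42.0, other scalings and filters, a replicate block, a joint fit, a fold threshold and leaving out each library were tried as alternatives.

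The members and the lists were chosen with earlier results of these data known. Named were N6AMT1, members called in both lines, members with opposite directions at an adjusted p below 0.05, members called with a log2 change of at least 1, and the 5 highest per transcript length in siCtrl cells of each line. Values of every library are given for N6AMT1, for the 16 members with the largest absolute fold change among those called and for the members with opposite directions. Other members and list genes that are named were chosen after their values were seen. Replicate numbers did not pair the libraries. The values of 1 member are not reported here, though it is included in the counts.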

Additional observations from a re-analysis of the deposited data

Results flagged for a closer look

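The response to siKMT9α#1 differed between the lines, by the interaction of line and siRNA at an edgeR adjusted p below 0.05, for 25 of the 31 enzymes picked for full description. Of these 31, 12 were picked for their opposite directions in the lines, so the choice fixes this count in part. Over all 69 enzymes tested, 38 passed (55.1%). The values are log2 fold changes in CAL-29 minus those in 5637 cells. Among the lysine methyltransferases and SET proteins the difference was -0.53 for KMT2A, -0.38 for KMT2C, -0.76 for KMT2D, 0.95 for EHMT2, 0.77 for SUV39H1, 0.64 for SUV39H2, -0.41 for EZH1, 0.36 for NSD2, -0.30 for KMT5A, -0.15 for SETD5, -0.81 for SMYD2 and 0.24 for SMYD5. It was -0.41 for PRDM4. The arginine methyltransferases PRMT1 and PRMT6 differed by 0.90 and 0.72, and DNMT1 by 0.75. Among the demethylases the difference was 0.46 for KDM1A, -0.19 for KDM2A, -0.75 for KDM3A, -0.24 for KDM4A, -0.74 for KDM4B, -0.43 for KDM5A, -0.46 for KDM5B, -0.39 for KDM6A and -1.77 for KDM7A. Over all genes tested 50.3% passed, and line, transfection reagent and siRNA concentration cannot be told apart in it. No group of more than 3 libraries exists, so single libraries were not tested as outliers.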

How the results depend on the processing

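Direction was the same under every alternative for each enzyme picked for full description, and over all alternatives their results moved past the threshold 39 times, lost it 41 times and kept their side of it 850 times. Leaving out each library in turn gave 7 to 16 enzymes upregulated and 6 to 9 downregulated in CAL-29 cells (22 to 29 and 14 to 17 at an adjusted p below 0.05). In 5637 cells it gave 18 to 25 and 6 to 7 (37 to 38 and 14 to 16), with 36 to 41 for the interaction and 16 to 18 for the siCtrl contrast. A fold threshold of 2 left 1 up and 2 down in CAL-29 cells and 1 up and 0 down in 5637 cells under both rules, and 1 enzyme for the interaction. Total count scaling left 16 upregulated in 5637 cells, glmTreat left 7 for the interaction, and an adjusted p alone gave 56 for the siCtrl contrast. In the shortest 3′ UTR, 5 enzymes held ACATTCA in each line. The causes were not tested. The log-scale deviations of same-numbered siCtrl and siKMT9α#1 libraries from their group means correlated at 0.167, 0.0287 and 0.0623 in CAL-29 cells. In 5637 cells these correlations were 0.155, -0.0066 and -0.0119. Not every library's deviations correlated best with those of its own number. With the replicate number as a block, CAL-29 cells had 15 enzymes up and 9 down (27 and 18 at an adjusted p below 0.05), 5637 cells had 28 and 7 (38 and 16), and 39 differed between lines. At p below 1e-06 the block also raised the calls over all genes. For CAL-29 these went from 14.9% to 21.3% upward and from 15.0% to 20.9% downward, beside 22.1% and 13.2% of the enzymes with the block. For 5637 they went from 17.9% to 18.6% upward and from 17.5% to 17.8% downward, beside 41.2% and 10.3% of the enzymes. The block gave -2.01 and -2.22 for N6AMT1, whose values over the alternatives were -2.09 to -1.85 in CAL-29 and -2.46 to -2.07 in 5637 cells. Transcript lengths from the tables were not used, because the tables hold no such column.

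EZH1, KDM4A and KDM5A had opposite directions in the lines in 12, 15 and 11 of 21 settings. Among the enzymes described, over 15% of the annotated exon bases of KDM4A, KMT2A, KMT5C, PRMT5, SETD6 and SUV39H1 overlap another gene, and only 1 siRNA was sequenced.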
